A study of Mus musculus with 15 samples.

Results

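Lipases, triglyceride-forming enzymes and fatty acid carriers were examined in the mouse cecum through 10 genes, found by their symbols in a table of 45804 genes. They are the lipases Pnliprp2, Pnpla2, Lipe and Mgll, the lipase coactivator Abhd5, the acyltransferases Dgat1 and Dgat2, the fatty acid-binding proteins Fabp1 and Fabp2, and the fatty acid transporter Cd36. All 10 were present, and 9 of them passed the filter on low values and were tested. Fabp1 did not pass it and is described by its reads. Cecal RNA came from C57BL/6 mice. They were male and fed normal chow, as the methods describe. The labels give an age of 20 weeks, which does not match the starting age and duration in those methods. The 7 mice with antibiotic-induced microbiome depletion (AIMD) received ampicillin, vancomycin, neomycin, metronidazole and the antifungal amphotericin B by gavage for 30 days, and the 8 vehicle-treated mice received water by the same route. Every mouse was wild type. The samples hold the whole emptied cecum with all its cell types, so that fewer cells of a type and less RNA per cell cannot be told apart. Mice were housed several to a cage, and the cage of each mouse is not given in the sources used here.

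Dietary triglyceride is broken down and rebuilt during its absorption in the gut. Lipases in the lumen release fatty acids and monoacylglycerol, which enterocytes take up, bind to carrier proteins and join again into triglyceride. Inside cells, triglyceride waits in lipid droplets and is taken apart in steps. Pnpla2 (adipose triglyceride lipase), helped by Abhd5, removes the first fatty acid, Lipe (hormone-sensitive lipase) the next, and Mgll (monoacylglycerol lipase) the last. Dgat1 and Dgat2 catalyse the final step of triglyceride synthesis. Most absorption of dietary fat takes place in the small intestine, above the cecum, while the cecal and colonic epithelium is known for its use of short-chain fatty acids made by bacteria.

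Of the 9 tested genes, 6 differed between AIMD and vehicle-treated mice and 3 did not pass the test. Pnliprp2, Abhd5, Dgat2 and Fabp2 were higher in AIMD mice, whereas Mgll and Cd36 were lower. Expression is given as FPKM, which counts reads relative to gene length and to a depth set for each mouse. The test was limma on log2(FPKM + 0.5) with Benjamini–Hochberg adjustment over all 11971 tested genes, and a gene was called at an adjusted p below 0.05. Of all tested genes, 36.0% were called, 19.4% as higher and 16.6% as lower in AIMD mice. Against that background 4 of 9 members were higher and 2 of 9 lower. The median log2 fold change was 0.12 over the 9 members and 0.007 over all tested genes. For Pnliprp2, Mgll and Abhd5 the ranges of AIMD and vehicle-treated mice were fully separate, as was the case for 8.56% of all tested genes. The count of 6 fell to 5, through the loss of Cd36, when any of 10 of the 15 mice was left out. Among these was vehicle replicate 8, the mouse with the fewest reads.

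The promoters of the 3 genes whose groups did not overlap are shown with that of Fabp2, the most abundant member. RefSeq sequences on GRCm38.p6 were matched for 8 of the 10 genes. Each line holds the 250 bases before the annotated start, on the strand of the gene, and all 4 lie on the plus strand. Capitals mark matches, on either strand, to 4 short motifs. They were the TATA box with the letters TATAAA, the binding motif of nuclear receptors with the letters AGGTCA, the core motif of the intestinal factors Cdx1 and Cdx2 with the letters TTTATG, and the E-box with the letters CACGTG. Mgll has 2 annotated starts, and the upstream one is shown.
Pnliprp2 (chr19:58759473-58759722): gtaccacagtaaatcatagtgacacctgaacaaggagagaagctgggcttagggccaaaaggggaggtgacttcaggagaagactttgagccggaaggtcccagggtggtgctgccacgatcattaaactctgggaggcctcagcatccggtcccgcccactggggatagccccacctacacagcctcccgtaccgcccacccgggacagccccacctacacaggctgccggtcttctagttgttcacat
Mgll (chr6:88724162-88724411): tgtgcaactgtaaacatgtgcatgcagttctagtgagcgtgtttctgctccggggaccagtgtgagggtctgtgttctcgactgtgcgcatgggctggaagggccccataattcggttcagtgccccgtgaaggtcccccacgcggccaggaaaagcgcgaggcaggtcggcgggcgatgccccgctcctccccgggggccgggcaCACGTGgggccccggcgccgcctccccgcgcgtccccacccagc
Abhd5 (chr9:122351366-122351615): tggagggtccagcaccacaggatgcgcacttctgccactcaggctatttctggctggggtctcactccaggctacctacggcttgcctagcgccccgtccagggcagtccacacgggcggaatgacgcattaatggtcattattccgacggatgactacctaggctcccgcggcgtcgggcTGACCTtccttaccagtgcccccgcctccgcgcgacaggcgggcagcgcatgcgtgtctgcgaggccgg
Fabp2 (chr3:122894822-122895071): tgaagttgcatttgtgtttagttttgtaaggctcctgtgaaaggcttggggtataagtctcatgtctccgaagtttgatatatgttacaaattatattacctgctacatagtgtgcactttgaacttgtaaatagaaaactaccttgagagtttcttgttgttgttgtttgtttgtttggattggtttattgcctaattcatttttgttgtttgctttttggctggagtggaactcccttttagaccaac

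The Mgll window shown held an E-box 44 bases before the start, a motif found in 6.02% of 32851 promoters of the same length. The window of the other Mgll start held none of the 4 motifs. Abhd5 held AGGTCA on the minus strand, printed above as TGACCT, 69 bases before its start, and 14.0% of all promoters hold this motif. Neither Pnliprp2 nor Fabp2 held any of the 4 motifs, of which TATAAA occurs in 12.4% and TTTATG in 10.8% of all promoters. The windows also differed in base composition, with a GC content of 68.0% in Mgll, 64.8% in Abhd5, 58.4% in Pnliprp2 and 35.6% in Fabp2. Among members not printed, Fabp1 had a TATA box 30 bases before its start, AGGTCA matches at 67 and 9 bases and TTTATG matches at 226 and 88 bases. Cd36 had AGGTCA at 228 and TTTATG at 232 bases. Lipe had an E-box 155 bases before the upstream of its starts and no motif before the other. Pnpla2 held none of the 4 motifs. These matches describe the letters in the windows only, and binding was not measured.

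**Figure D1:**
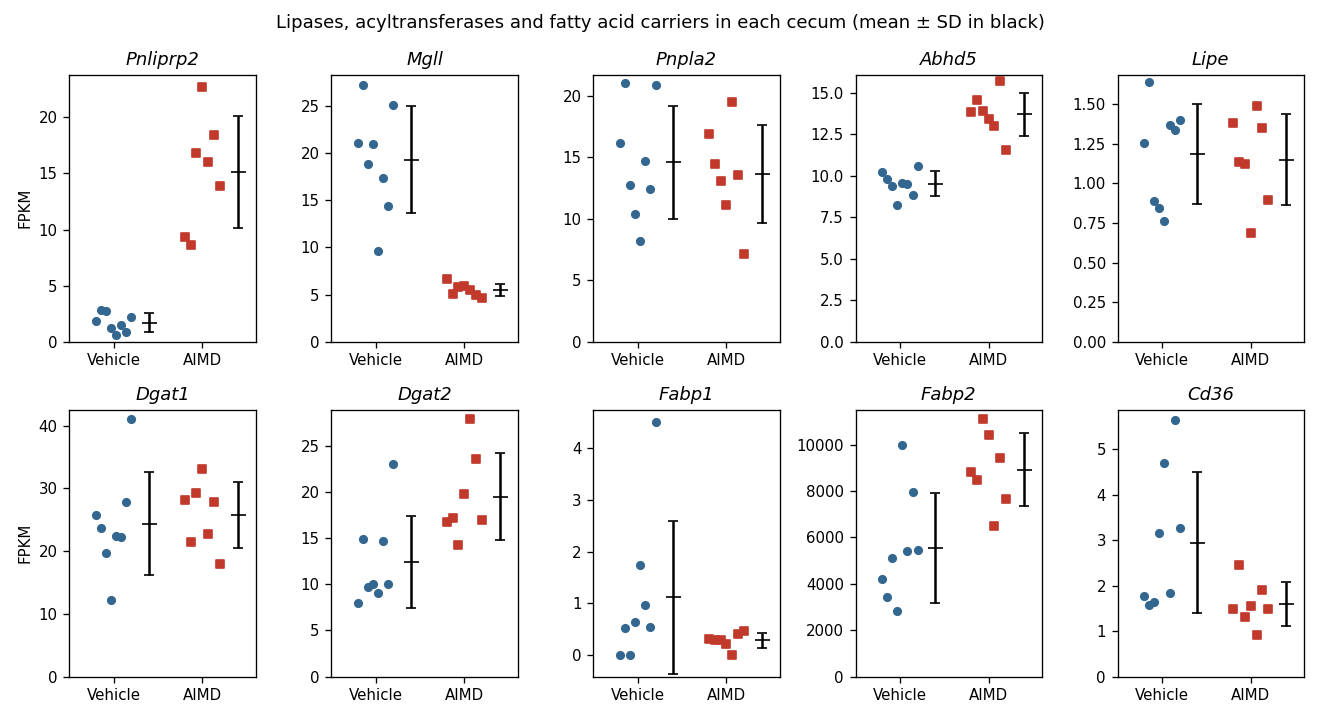
FPKM of the 10 genes in each mouse. Each panel is 1 gene with its own linear axis in FPKM, blue circles are the 8 vehicle-treated mice, red squares the 7 AIMD mice, and the black bars give mean ± SD. Pnliprp2 and Abhd5 were higher in every AIMD mouse than in any vehicle-treated mouse, Mgll was lower, and Pnpla2, Lipe and Dgat1 had largely shared ranges.

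Pnliprp2 encodes pancreatic lipase-related protein 2, a secreted lipase that also cleaves phospholipids and galactolipids. The gene maps to chromosome 19, from 58759719 to 58777534. Its FPKM ranged from 0.612 to 2.80 (median 1.65) in vehicle-treated mice, and from 8.63 to 22.7 (median 16.0) in AIMD mice. Every AIMD mouse was above every vehicle-treated mouse, and the lowest AIMD mouse (replicate 2) was still at about 3 times the highest vehicle-treated mouse (replicate 2). The means of 1.71 ± 0.818 (SD, n = 8) with vehicle and 15.1 ± 4.99 (SD, n = 7) with AIMD stood in a ratio of 8.84. On the log2 scale the change was 2.85 (SE 0.25, 95% interval 2.32 to 3.37, limma adjusted p = 7.04e-07), which placed Pnliprp2 at percentile 99.9 of the changes of all tested genes. The vehicle-treated values rested on few reads, 5 to 60 per mouse, compared to 164 to 506 in AIMD mice. Leaving out any single mouse gave a log2 fold change of 2.72 to 2.96. No window of 50 bases in its exons occurred in another gene.

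Because Pnliprp2 is abundant in pancreas, markers of exocrine pancreas were read beside it. Their summed FPKM over 9 genes was 0.213 to 1.29 (median 0.989) in AIMD mice and 0.243 to 5.02 (median 0.499) in vehicle-treated mice. The pancreatic amylase gene Amy2a5 was at 0 in all mice. Pnlip (pancreatic lipase), Cela2a, Ctrb1 and Cel were at 0 in every vehicle-treated mouse and averaged at most 0.0842 FPKM in AIMD mice. Cpa1, Prss2 and Cpb1 averaged 0.106, 0.0508 and 0.0379 FPKM in AIMD mice. In vehicle-treated mice their means were lower, at 0.00761, 0.0112 and 0.0171, and no mouse had more than 5 reads on any of them. Clps (colipase), the most abundant and the only one tested, had means of 0.470 in AIMD and 1.28 in vehicle-treated mice and was not called (limma adjusted p = 0.336), and it reached 4.93 FPKM in a vehicle-treated mouse. The part of pancreatic RNA in the levels of Pnliprp2 was not tested.

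Mgll completes the breakdown of triglyceride by splitting monoacylglycerol, and it also degrades the endocannabinoid 2-arachidonoylglycerol. The gene maps to chromosome 6, from 88724412 to 88828360. Its FPKM was 9.61 to 27.2 (median 19.9) in vehicle-treated mice and 4.68 to 6.66 (median 5.50) in AIMD mice. All AIMD mice were below all vehicle-treated mice, and they lay closer together, with a coefficient of variation of 12.2% against 29.3%. The mean of 19.3 ± 5.66 (SD, n = 8) in vehicle-treated mice was 3.51 times that of AIMD mice, 5.50 ± 0.671 (SD, n = 7). The log2 fold change of Mgll was -1.67 (SE 0.18, 95% interval -2.04 to -1.30, limma adjusted p = 4.08e-06), at percentile 0.5 of all tested genes. With single mice left out the log2 fold change was -1.80 to -1.59. Within the Mgll locus, 3 predicted genes overlap it on the same strand. Of the 5166 windows of 50 bases in the Mgll exons, 0 occurred in another gene. Reads on any shorter shared stretch could belong to Mgll or to a predicted gene. Lipe, Abhd5 and Fabp2 each overlap 1 gene on the other strand, and whether the counting used the strand is not given in the sources used here.

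The enzymes of the earlier steps of lipolysis did not pass the test. Pnpla2, on chromosome 7 from 141455198 to 141460743, had an FPKM of 8.19 to 21.0 (median 13.8) in vehicle-treated mice and 7.11 to 19.5 (median 13.6) in AIMD mice. The ranges nearly coincided. Its means were 14.6 ± 4.63 (SD, n = 8) and 13.7 ± 3.99 (SD, n = 7), with a log2 fold change of -0.08 (SE 0.22, 95% interval -0.54 to 0.37, limma adjusted p = 0.786). Lipe, on the same chromosome from 25379527 to 25398710, was low in both groups. It ranged from 0.764 to 1.64 (median 1.30) in vehicle-treated mice and from 0.684 to 1.49 (median 1.13) in AIMD mice. The Lipe groups overlapped over most of their range, with a log2 fold change of -0.03 (SE 0.15, 95% interval -0.34 to 0.28, limma adjusted p = 0.893). The intervals of both genes extend to either side of 0.

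Abhd5, also named CGI-58, binds to Pnpla2 at the lipid droplet and raises its activity. The gene maps to chromosome 9, from 122351608 to 122381524. Its FPKM was 8.26 to 10.6 (median 9.52) in vehicle-treated mice and 11.5 to 15.7 (median 13.8) in AIMD mice. The difference was modest in size but the groups did not overlap, and Abhd5 had the smallest spread of all members, with coefficients of variation of 7.74% and 9.46%. The means were 9.52 ± 0.737 (SD, n = 8) in vehicle-treated and 13.7 ± 1.30 (SD, n = 7) in AIMD mice, a ratio of 1.44. This is a log2 fold change of 0.50 (SE 0.09, 95% interval 0.31 to 0.70, limma adjusted p = 0.000594), at percentile 85.3 of all tested genes. Leaving out single mice gave 0.47 to 0.54.

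Ratios within each mouse show how the balance of the lipolytic genes differed, and they do not depend on the scaling of a mouse. Mgll exceeded Pnpla2 in 8 of 8 vehicle-treated mice, with a ratio of their FPKM of 1.16 to 2.01 and a median of 1.25. It was below Pnpla2 in all AIMD mice, at 0.282 to 0.658 with a median of 0.393. The ratio of Pnliprp2 to Mgll was 0.0569 to 0.145 in vehicle-treated mice and 1.40 to 3.85 in AIMD mice, so that the order of the 2 lipases was the opposite in the 2 groups in every mouse. Abhd5 relative to Pnpla2 had a median of 0.678 in vehicle-treated and 1.06 in AIMD mice, with overlapping ranges of 0.467 to 1.17 and 0.665 to 1.62. Lipe relative to Pnpla2 had nearly the same median in both groups, 0.0795 and 0.0815.

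Dgat1 and Dgat2 attach the last fatty acid to diacylglycerol but belong to unrelated protein families. Dgat1, on chromosome 15 from 76502015 to 76511953, ranged from 12.1 to 41.1 FPKM (median 23.1) in vehicle-treated mice and from 17.9 to 33.1 (median 27.8) in AIMD mice. The AIMD values lay entirely within the range of the vehicle-treated mice. The log2 fold change of Dgat1 was 0.12 (SE 0.20, 95% interval -0.29 to 0.54, limma adjusted p = 0.662). Dgat2, on chromosome 7 from 99153658 to 99182719, ranged from 7.96 to 23.0 FPKM (median 10.1) in vehicle-treated mice and from 14.3 to 27.9 (median 17.2) in AIMD mice. In 5 of 8 vehicle-treated mice Dgat2 was below the lowest AIMD mouse, and in 2 of 7 AIMD mice it was above the highest vehicle-treated mouse, replicate 8. Means were 12.4 ± 4.99 (SD, n = 8) and 19.5 ± 4.72 (SD, n = 7), with a log2 fold change of 0.68 (SE 0.20, 95% interval 0.25 to 1.10, limma adjusted p = 0.0154). Without vehicle replicate 8, in which both Dgat genes had their highest vehicle-treated value, the Dgat2 change was 0.81. Dgat2 relative to Dgat1 had a median of 0.525 in vehicle-treated and 0.802 in AIMD mice, with overlapping ranges, and 3 AIMD mice lay above all vehicle-treated mice.

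Fabp2, the intestinal fatty acid-binding protein, carries long-chain fatty acids within enterocytes. The gene maps to chromosome 3, from 122895072 to 122899506. Fabp2 exceeded all other members in every mouse by a wide margin, at 2836 to 9998 FPKM (median 5258) in vehicle-treated mice and 6495 to 11090 (median 8805) in AIMD mice. In 6 of 8 vehicle-treated mice it was below the lowest AIMD mouse, and 2 of 7 AIMD mice were above the highest vehicle-treated mouse. The means were 5549 ± 2374 (SD, n = 8) and 8906 ± 1573 (SD, n = 7), a ratio of 1.61. The log2 fold change was 0.77 (SE 0.24, 95% interval 0.26 to 1.28, limma adjusted p = 0.0200). It was 1.55 under quantile normalization, which replaces values by those of equal rank, and the call was lost without the filter on low values (adjusted p = 0.133).

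Fabp1, the liver-type fatty acid-binding protein, is a major carrier of the proximal small intestine and liver. The gene maps to chromosome 6, from 71199827 to 71205023. In vehicle-treated mice it ranged from 0 to 4.50 FPKM with a median of 0.595, and in AIMD mice from 0 to 0.466 with a median of 0.298. These values rest on 0 to 11 reads per mouse, 31 in all vehicle-treated and 15 in all AIMD mice. Fabp1 was at 0 in 2 vehicle-treated mice and 1 AIMD mouse, and vehicle replicate 8 alone had 11 reads. The difference of the means of log2(FPKM + 0.5) was -0.67, and it did not pass an exact two-sided permutation test (p = 0.145). In 6 of 8 vehicle-treated mice Fabp1 was above every AIMD mouse, and these 6 and no AIMD mouse reached 0.5 FPKM. Without vehicle replicate 8 the mean of the vehicle-treated mice fell from 1.12 to 0.631 FPKM. The summed FPKM of 9 markers of proximal small intestinal enterocytes was also highest in that mouse, at 370, against a median of 92.3 in vehicle-treated mice, and its part in the Fabp1 value was not tested.

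Cd36 is a membrane protein that promotes the uptake of long-chain fatty acids in many cell types, among them adipocytes, endothelial cells, macrophages and enterocytes. The gene maps to chromosome 5, from 17781690 to 17888801. Its FPKM was 1.57 to 5.64 (median 2.51) in vehicle-treated mice and 0.924 to 2.46 (median 1.48) in AIMD mice. Vehicle replicates 5 and 7 had the highest values, 4 of 8 vehicle-treated mice were above all AIMD mice, and 5 of 7 AIMD mice were below all vehicle-treated mice. The means were 2.95 ± 1.55 (SD, n = 8) and 1.59 ± 0.482 (SD, n = 7). The log2 fold change of Cd36 was -0.64 (SE 0.24, 95% interval -1.14 to -0.14, limma adjusted p = 0.0455). This call was lost in 10 of the 15 analyses that left out a single mouse, with an adjusted p of up to 0.101, and with the exact rank-sum test (adjusted p = 0.0574).

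Markers of the cell types known to express Cd36 were read beside it. The summed FPKM of 7 adipocyte markers was 15.6 to 26.9 in AIMD and 16.0 to 61.0 in vehicle-treated mice. Cidec, the most abundant of them, had means of 14.4 and 15.1. The adipocyte hormone gene Adipoq is named as the only called marker of this list. Its mean FPKM was 0.473 in AIMD and 2.19 in vehicle-treated mice (limma adjusted p = 0.0215). Plin1 was at 0 in every AIMD mouse, but vehicle-treated mice also had a median of 0 and at most 0.118 FPKM. Of 4 tested adipocyte markers, 1 was lower in AIMD mice and none higher. Endothelial markers summed to 5.70 to 8.11 in AIMD and 5.80 to 9.80 in vehicle-treated mice, with 1 of 5 tested called higher. The tested markers of this and the next list are named to show both directions. Gpihbp1 was called (log2 fold change 0.447), and Pecam1, Cdh5, Kdr and Emcn were not (-0.188, -0.286, -0.286 and -0.267). Macrophage markers summed to 13.5 to 23.8 and 9.30 to 19.8, with 3 of 5 called higher in AIMD mice. These were Csf1r, Cd68 and C1qa (0.782, 0.483 and 0.644), while Adgre1 (0.446) and Mrc1 (-0.69) were not called. The part of these cells in the levels of Cd36 was not tested.

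In order of their mean FPKM, which is a level per length, the members spanned a wide range. Vehicle-treated mice had Fabp2 first, then Dgat1, Mgll, Pnpla2, Dgat2, Abhd5, Cd36, Pnliprp2, Lipe and Fabp1. Only Fabp2 and Dgat1, and Abhd5 and Cd36, were neighbours whose ranges over mice did not overlap. In AIMD mice the order was Fabp2, Dgat1, Dgat2, Pnliprp2, Abhd5, Pnpla2, Mgll, Cd36, Lipe and Fabp1. Here the ranges of Dgat1 and Dgat2, Dgat2 and Pnliprp2, Pnliprp2 and Abhd5, Abhd5 and Pnpla2, and Cd36 and Lipe overlapped, while those of the remaining neighbours did not. Pnliprp2 moved from place 8 to place 4, and Mgll from place 3 to place 7.

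Time of sacrifice was a factor in the study's own model, but the labels do not give it for each mouse. Expression of 13 circadian clock genes split the mice into a set with high Arntl (AIMD replicates 1 to 3 and vehicle replicates 1 to 4) and a set with low Arntl (AIMD replicates 4 to 7 and vehicle replicates 5 to 8). Arntl encodes a core activator of the clock and Dbp one of its output factors. Arntl was at 12.4 to 20.5 FPKM in the first set and at 3.96 to 9.80 in the second, with Dbp at 0.522 to 1.31 and 5.13 to 13.6. Both sets hold mice of both groups. Within them the groups still differed in clock-gene levels, with Arntl at a mean of 7.35 in AIMD and 4.18 in vehicle-treated mice of the low set and Dbp at 0.980 and 0.570 in the high set, each without overlap. The part of this difference in the members' values was not tested.

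The groups of Pnliprp2, Mgll and Abhd5 were separate over all 15 mice, which fixes their direction within each set, so only the sizes of their differences are given. Pnliprp2 averaged 11.6 FPKM in AIMD and 2.13 in vehicle-treated mice with high Arntl, and 17.8 and 1.29 in those with low Arntl. The Pnliprp2 differences on the log2 scale were 2.19 and 3.41. For Mgll the means were 5.83 against 22.0 and 5.26 against 16.6, with log2 differences of -1.83 and -1.50. Abhd5 was higher by 0.56 and 0.46 on that scale, and Dgat2 by 0.60 and 0.69 with overlapping groups.

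The gap between the sets was largest for Pnliprp2, followed by Fabp2 and Cd36. Fabp2 averaged 9456 FPKM in AIMD and 3890 in vehicle-treated mice with high Arntl, where the groups did not overlap and the log2 difference was 1.31. With low Arntl the means were 8494 and 7207, the groups overlapped and the log2 difference was 0.26. For Cd36 the log2 difference was -0.16 with high and -1.08 with low Arntl, where vehicle-treated mice averaged 3.87 and AIMD mice 1.47. A test of the difference between the sets, chosen after the data were seen, gave an unadjusted limma p of 0.0115 for Pnliprp2, 0.0175 for Fabp2 and 0.0418 for Cd36. None passed the adjustment, with an adjusted p of 0.993 for each. Over all 11971 genes, 0 were called (0%) and 534 had an unadjusted p below 0.05. A dependence of the AIMD effect on the clock-gene set did not pass the test for these genes.

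**Figure D2:**
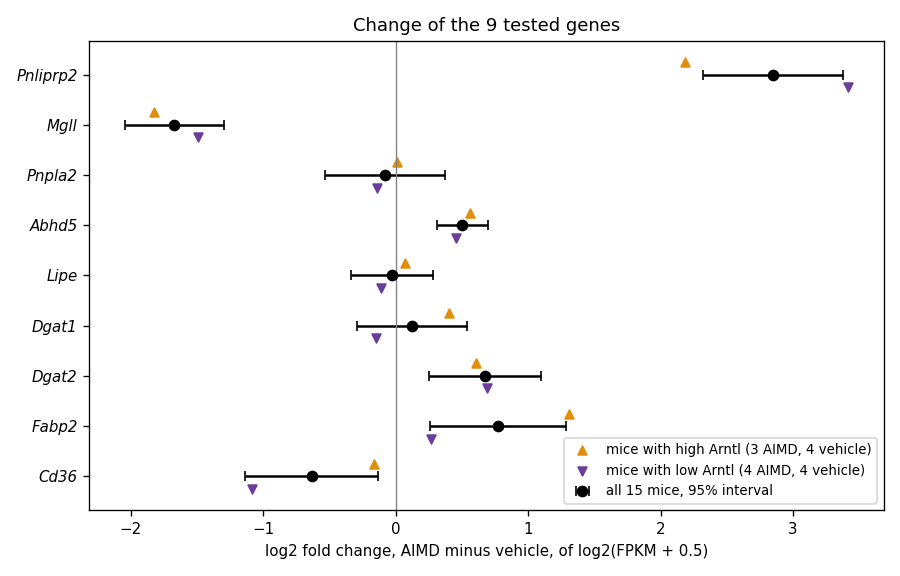
Log2 fold change of the 9 tested genes, AIMD minus vehicle-treated mice, on the log2(FPKM + 0.5) scale. Black circles with bars are the estimates and 95% intervals over all 15 mice, triangles pointing up the difference among mice with high Arntl and triangles pointing down the difference among mice with low Arntl. The triangles of Pnliprp2, Fabp2 and Cd36 lie farthest apart, by 1.23, 1.04 and 0.92 log2 units, none of which passed the adjusted test.

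Variation among mice of the same group was compared with that of all other genes, after the group means were taken out of the log2 values. These correlations are descriptions over 15 mice that share their groups, their clock state and their depth of sequencing. The gene most like Mgll was Madd (Pearson's r = 0.95, Spearman's rho = 0.87), and the gene most like Dgat2 was Smurf1 (r = 0.95, rho = 0.84). Pnpla2 was most like Rhov (r = 0.94, rho = 0.93), Fabp2 most like Mcfd2 (r = 0.93, rho = 0.92) and Dgat1 most like Rbp2 (r = 0.89, rho = 0.69). Lipe varied most closely with Dpf2 (r = 0.87, rho = 0.85), Cd36 with Aldh1a3 (r = 0.87, rho = 0.88), Pnliprp2 with Mocs1 (r = 0.83, rho = 0.81) and Abhd5 with Cdc42ep2 (r = 0.78, rho = 0.69). With the means of the clock-gene sets also taken out, r for these pairs was 0.77 to 0.98. Among the members themselves, Pnpla2 and Lipe rose and fell together most closely (r = 0.816), and Mgll varied with Pnpla2 (r = 0.70). Mgll and Fabp2 varied in opposite directions (r = -0.69), as did Pnliprp2 and Cd36 (r = -0.68). The 99th percentile of r with all other tested genes was 0.828 for Pnpla2, 0.717 for Lipe and 0.85 for Mgll. The pair of Pnpla2 and Lipe was thus above this level for Lipe only, and that of Mgll and Pnpla2 was below it for both. Negative pairs were not set against such a level, and the means of the clock-gene sets were not taken out for pairs of members.

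Other genes of lipid handling were read from 4 lists chosen by role. Of 32 further lipases and acylglycerol hydrolases, 23 were tested, and 4 were higher and 6 lower in AIMD mice, with a median log2 fold change of -0.13. Of 21 further genes of triglyceride synthesis, 16 were tested, with 3 higher, 4 lower and a median of -0.19. Lipid droplet proteins had 17 of 22 genes tested, with 3 higher, 3 lower and a median of 0.003. The fatty acid binding, uptake and receptor genes had 15 of 25 tested, with 4 higher, 3 lower and a median of -0.25. These shares of called genes, 10 of 23, 7 of 16, 6 of 17 and 7 of 15, stand beside the 36.0% of all tested genes, and each list holds genes of both directions.

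**Figure D3:**
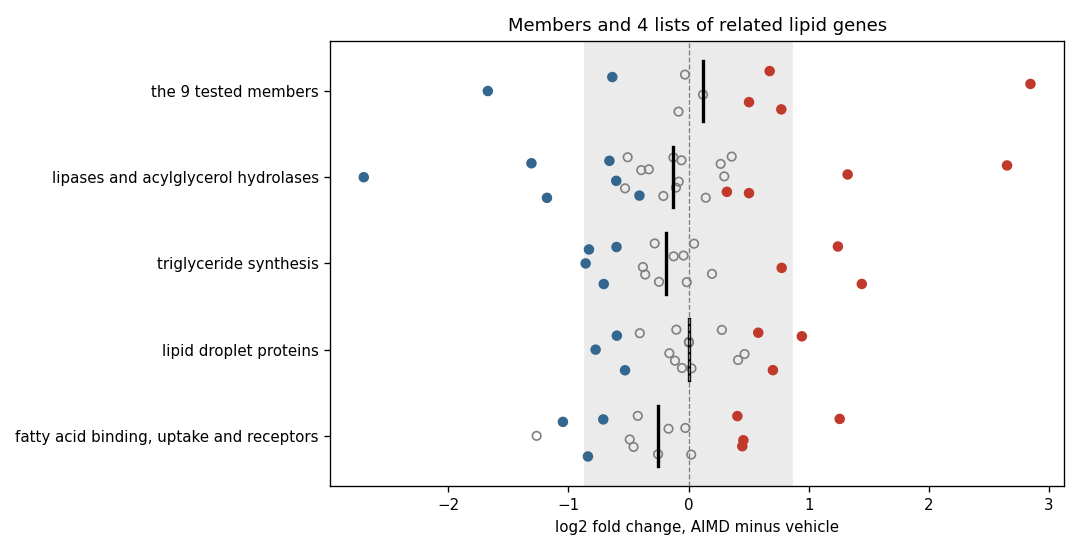
Log2 fold change of the 9 tested members and of the tested genes of the 4 lists, AIMD minus vehicle-treated mice. Each point is a gene, filled red where called higher, filled blue where called lower and open where not called, the black bar is the median of the row, and the grey band holds the middle 90% of all 11971 tested genes, -0.86 to 0.86. Pnliprp2 and Mgll lie outside the band in opposite directions, as do genes on both sides of the lipase list.

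Among the lipases, Lpl, Lipg and Ces2a had groups without overlap. Lpl encodes lipoprotein lipase, which releases fatty acids from circulating triglyceride, and its FPKM was 7.74 to 17.2 in vehicle-treated and 3.96 to 6.62 in AIMD mice (log2 fold change -1.31, SE 0.15, limma adjusted p = 1.24e-05). Lipg, the endothelial lipase, acts mainly on phospholipids of high-density lipoprotein and was higher in AIMD mice, at 7.75 to 11.6 FPKM against 1.40 to 5.19 (log2 fold change 1.32, SE 0.20, limma adjusted p = 0.000103). Ces2a is a carboxylesterase, and its FPKM was 139 to 390 in vehicle-treated and 34.3 to 47.1 in AIMD mice (log2 fold change -2.70, SE 0.21, limma adjusted p = 1.48e-07). Of the 50-base windows of Ces2a, 17.3% also occur in other genes, chiefly in Gm7208, so part of its reads may belong to a copy. Its relatives Ces2c and Ces2e, added after their values were seen, did not share this direction. Ces2c was called higher in AIMD mice with overlapping groups (log2 fold change 2.65, limma adjusted p = 4.49e-05), and 36.1% of its windows occur in other genes. Ces2e was not called (log2 fold change -0.082, limma adjusted p = 0.678).

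In triglyceride synthesis, Lpin3 and Gyk were higher in AIMD mice without overlap. Lpin3 is a member of the lipin family, which forms diacylglycerol from phosphatidate, and its FPKM was 1.06 to 4.84 in vehicle-treated and 5.40 to 9.90 in AIMD mice (log2 fold change 1.44, SE 0.21, limma adjusted p = 7.77e-05). Gyk is glycerol kinase, which makes glycerol 3-phosphate, and it was at 2.29 to 4.90 and 6.66 to 10.4 FPKM (log2 fold change 1.24, SE 0.14, limma adjusted p = 9.76e-06). Mogat2, which builds diacylglycerol from absorbed monoacylglycerol, had means of 3.21 FPKM in vehicle-treated and 2.97 in AIMD mice and was not called (limma adjusted p = 0.970).

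Droplet proteins with separate groups were Plin2, Ldah and Lpcat1. Plin2 coats lipid droplets, and its FPKM was 33.6 to 51.0 in vehicle-treated and 23.3 to 30.6 in AIMD mice (log2 fold change -0.60, SE 0.11, limma adjusted p = 0.000754). Ldah, a hydrolase found on droplets, was at 4.35 to 10.02 and 10.8 to 15.8 FPKM (log2 fold change 0.94, SE 0.15, limma adjusted p = 0.000205). Lpcat1, which makes phosphatidylcholine from lysophosphatidylcholine, was at 2.96 to 5.09 and 1.95 to 2.64 FPKM (log2 fold change -0.53, SE 0.12, limma adjusted p = 0.00215). G0s2, an inhibitor of Pnpla2, was also called, with overlapping groups (log2 fold change -0.77, limma adjusted p = 0.0443), and it was singled out after its values were seen. Its means were 1.84 FPKM in vehicle-treated and 0.746 in AIMD mice, on only 4 to 19 and 3 to 13 reads per mouse. The call of G0s2 was not followed with single mice left out.

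Of the uptake genes, Slc27a4 and Slc27a1 had separate groups. Both encode fatty acid transport proteins that also activate fatty acids to their coenzyme A esters. Slc27a4, the main family member of enterocytes, was at 57.6 to 128 FPKM in vehicle-treated and 34.6 to 49.5 in AIMD mice (log2 fold change -1.05, SE 0.15, limma adjusted p = 5.99e-05). Slc27a1 was at 1.34 to 2.80 and 0.539 to 1.09 FPKM (log2 fold change -0.71, SE 0.15, limma adjusted p = 0.00148).

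**Figure D4:**
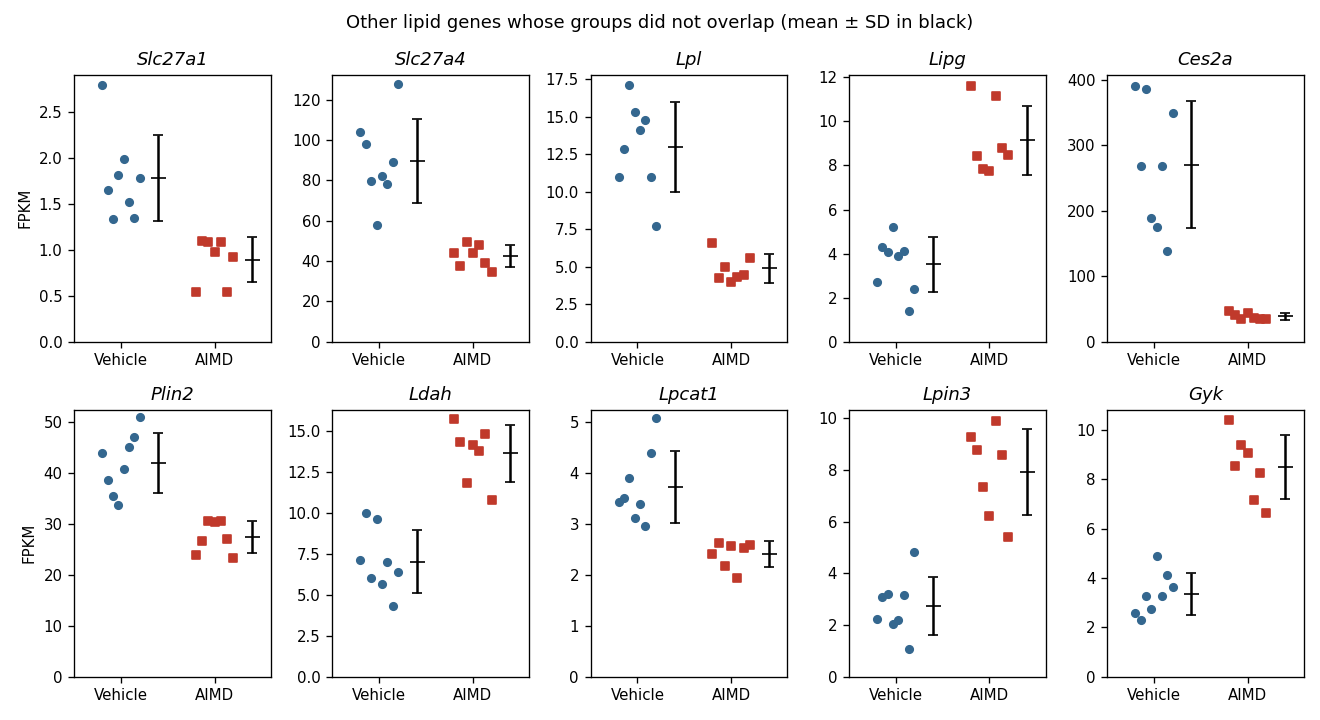
FPKM in each mouse of the 10 other lipid genes that were called and whose groups did not overlap, out of 71 tested genes of the lists (14.1%, beside 8.56% of all tested genes). Each panel has its own linear axis in FPKM, with blue circles for the 8 vehicle-treated mice, red squares for the 7 AIMD mice and black bars for mean ± SD. Lipg, Ldah, Lpin3 and Gyk were higher in AIMD mice, and Lpl, Ces2a, Plin2, Lpcat1, Slc27a1 and Slc27a4 were lower.

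The tissue label was checked against 11 markers of the large intestinal epithelium, which summed to 26420 to 37230 FPKM in AIMD and 23030 to 31900 in vehicle-treated mice, led by Car1, with Hoxb13 at or below 0.486 FPKM in every mouse. Of the 10 tested, 1 was higher and 1 lower. Proximal small intestinal enterocyte markers summed to 136 to 304 and 55.2 to 370, led by Rbp2, with 2 of 6 tested higher in AIMD mice and none lower, and the lactase gene Lct at most 0.141. Paneth cell markers summed to 8.64 to 36.2 and 5.09 to 34.6, with 1 of 4 tested higher. Smooth muscle markers summed to 59.5 to 251 in AIMD and 141 to 1055 in vehicle-treated mice, with none of 4 called. Liver markers summed to 18.9 to 33.6 and 4.45 to 37.6, with the only tested marker, Ttr, not called. Nearly all of the liver sum was Ttr, with Alb at most 0.258 and Serpina1a at most 0.0649 FPKM in any mouse. Vehicle replicate 8 had the highest sum among vehicle-treated mice for 6 of the 9 lists. Reads on genes were 8618814 to 17989506 in AIMD and 4345380 to 14328960 in vehicle-treated mice. The low members rested on 18 to 101 reads in vehicle-treated and 26 to 110 in AIMD mice for Lipe, and on 44 to 134 and 45 to 107 for Cd36.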

How the data were processed

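Cecal RNA of 7 AIMD and 8 vehicle-treated mice was measured from poly-A selected, stranded libraries. FPKM per gene and mouse were deposited by the authors, who aligned the reads with STAR (GRCm38) and assigned them to GENCODE genes with featureCounts. How counts became FPKM, and tool versions, are not given in the sources used here. Whole reads were recovered for 98.9% of the 24279 genes above 0 (within 0.03 reads), and their number limits the precision of low genes. The GENCODE exon length gave them for 68.3% of genes, and for the rest another length was sought. Values were scaled by size factors (median of ratios, 1.01 in every mouse) and taken as log2(FPKM + 0.5). A gene entered the test if 7 or more mice reached an FPKM of 0.5. The test was limma 3.58.1 with a trend (R 4.3.3), two-sided, with Benjamini–Hochberg adjustment. Fold changes on this scale understate changes of low genes. Fabp1 was compared by an exact permutation test in scipy 1.17.1. The study's own model also had time of sacrifice, which the labels do not give. The 4 rows whose symbol stands more than once were left out. Positions are from GENCODE M21, promoters from RefSeq.

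The genes, lists and tests were chosen with earlier results of these data known. Named are the 10 members, listed genes that were called without overlap between groups, and the tested gene most correlated with each member; others are marked in the text, as are list members with no call that serve as a contrast. Alternatives were other scalings, pseudocounts, filters and tests, limma voom on recovered reads, a replicate block, clock-gene covariates and each mouse left out. The limma fit and the recovery of reads were tested on simulated data. The simulated reads used the GENCODE exon lengths, so the search for another length was not tested.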

Additional observations from a re-analysis of the deposited data

Results flagged for a closer look

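In 3 of 40 groups of values, from 20 genes, 1 mouse lay far from the rest of its group by Dixon's criterion, which chance meets in about 1 in 20 groups. Dgat2 was 23.0 FPKM in vehicle replicate 8, against 7.96 to 14.9 in the other vehicle-treated mice, a gap of 0.537 of the group's range where the critical value is 0.526. Fabp1 was 4.50 FPKM in the same mouse, against 0 to 1.73 in the others, with a gap of 0.615 of the range. Slc27a1 was 2.80 FPKM in vehicle replicate 1, against 1.34 to 1.99, with a gap of 0.553 of the range. Without vehicle replicate 8 the log2 fold change of Dgat2 was 0.81 in place of 0.68.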

How the results depend on the processing

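The count of members called was 6, 5 to 6 with single mice left out and 4 to 6 under the other 13 alternatives. Pnliprp2, Mgll, Abhd5 and Dgat2 kept their direction and their call under all of these, with an adjusted p of at most 0.00363, 0.00363, 0.00363 and 0.0431. Fabp2 lost its call without the filter on low values (adjusted p = 0.133), and Cd36 lost its call there (0.0931), with the exact rank-sum test (0.0574) and without any of 10 mice, with an adjusted p of up to 0.101 over the leave-one-out fits. Of the genes not called, the leave-one-out log2 fold changes of Pnpla2 ran from -0.189 to 0.058 (the latter without AIMD replicate 7), of Lipe from -0.086 to 0.051 (0.051 without AIMD replicate 4, 0.008 without AIMD replicate 7 and 0.023 without vehicle replicate 2) and of Dgat1 from -0.011 (without vehicle replicate 4) to 0.238, so that their signs were not fixed. The counts called in the 4 lists were 9 to 12 of the lipases, 7 to 8 of triglyceride synthesis, 4 to 8 of droplet proteins and 5 to 9 of the uptake genes under the alternatives other than leave-one-out, and 7 to 12, 7 to 8, 4 to 6 and 6 to 9 with single mice left out. The replicate numbers do not pair the mice: same-numbered mice correlated at -0.35 to 0.43, and 1 of 7 correlated best with its own number. With the replicate block, which leaves out vehicle replicate 8, 4 members were called, Fabp2 (log2 fold change 0.78, adjusted p = 0.0518) and Cd36 (-0.60, adjusted p = 0.0927) not, and 4646 genes in all were called in place of 4315.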
